A study of Mus musculus with 15 samples.

Results

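Forebrain RNA of wild-type mice labelled IR-BMT was set against forebrain RNA of untreated wild-type mice (NT), with 3 libraries a side out of 15 in the series. The IR-BMT libraries, written IR_BMT here, were taken by their titles and by library names ending in IR, and the NT libraries by library names ending in NT. The remaining 9 libraries are wild-type forebrain from 3 groups treated with PLX, which the labels name PLX1X, PLX3X_CD0 and PLX3X_CD30. The labels do not spell out IR-BMT; in this field the letters usually stand for irradiation followed by a bone marrow transplant. They give no radiation dose, no donor, no time after treatment, no age and no statement that the libraries of a group are separate animals. Each p-value therefore reflects how far these libraries differ within a group, and that difference may be technical.

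Microglia are the resident macrophages of the brain, and they need signalling through the receptor Csf1r to survive. Irradiation damages dividing cells, among them precursors of oligodendrocytes and of new neurons, and a marrow graft given after irradiation can send macrophages of blood origin into the brain. Mouse transcripts also differ widely in GC content, the share of bases that are G or C, because genes lie in GC-rich or GC-poor stretches of the genome.

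RNA was read as total counts per gene, and levels are CPM, in which every library has the same total once TMM factors have corrected for composition. Total counts ran from 33304212 to 39549891 in the IR_BMT libraries and from 19249641 to 52308965 in the NT libraries. Of 55487 gene identifiers, 21780 passed the filter on low counts and were tested, and 21748 of these have a transcript of known GC content. Neuron markers were abundant, with the 16 genes of that list summing to between 15056 and 16480 CPM in IR_BMT and between 12158 and 13471 CPM in NT. IR_BMT replicate 1 stood apart in markers of the choroid plexus, the tissue that makes cerebrospinal fluid. Those 10 genes summed to 1287, 366 and 343 CPM in IR_BMT replicates 1, 2 and 3, against 333 to 384 CPM in NT. Ttr, the transthyretin carrier made there, stood at 448, 8.11 and 8.95 CPM in IR_BMT, against 22.0, 6.51 and 14.6 CPM in NT. None of the 10 choroid plexus genes was called. The labels name no batch of extraction or sequencing.

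Transcripts rich in G and C were higher in IR_BMT than in NT, and transcripts poor in them were lower. At an adjusted p under 0.05, edgeR's quasi-likelihood test with Benjamini-Hochberg adjustment called 6658 of 21780 genes, 30.6% of those tested. Of these, 3293 genes (15.1%) were higher in IR_BMT and 3365 (15.4%) were lower. The median transcript GC content was 54.1% for the higher genes and 43.6% for the lower genes, against 49.3% for the genes not called. Among changes of at least 2-fold, falls outnumbered rises: 87 genes rose and 765 fell by that much. When the trend of each library with GC content and length was taken out, 72 rose and 439 fell by that much. The 3 IR_BMT libraries lay wholly above or wholly below the 3 NT libraries in 8702 genes, 40.0% of those tested.

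The change moved steadily with GC content. Genes were ordered by the GC content of their longest annotated transcript and cut into 10 groups of near-equal size (deciles). The median log2 fold change from the lowest to the highest decile was -0.47, -0.28, -0.17, -0.12, -0.06, -0.01, 0.06, 0.11, 0.16 and 0.23. In the lowest decile, with 28.3% to 40.9% GC, 30 of 2174 genes rose and 956 fell. In the highest decile, with 57.5% to 78.3% GC, 772 of 2175 genes rose and 62 fell; that last count was 32 without IR_BMT replicate 1 and 28 without IR_BMT replicate 2. The medians of the outer deciles lay 0.70 log2 units apart, or 1.62-fold. Over the 21748 genes the Spearman correlation of GC content with the log2 fold change was 0.440, a description across genes that share the same 6 libraries and are not independent. With the length of the transcript in place of GC content it was 0.069.

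**Figure D1:**
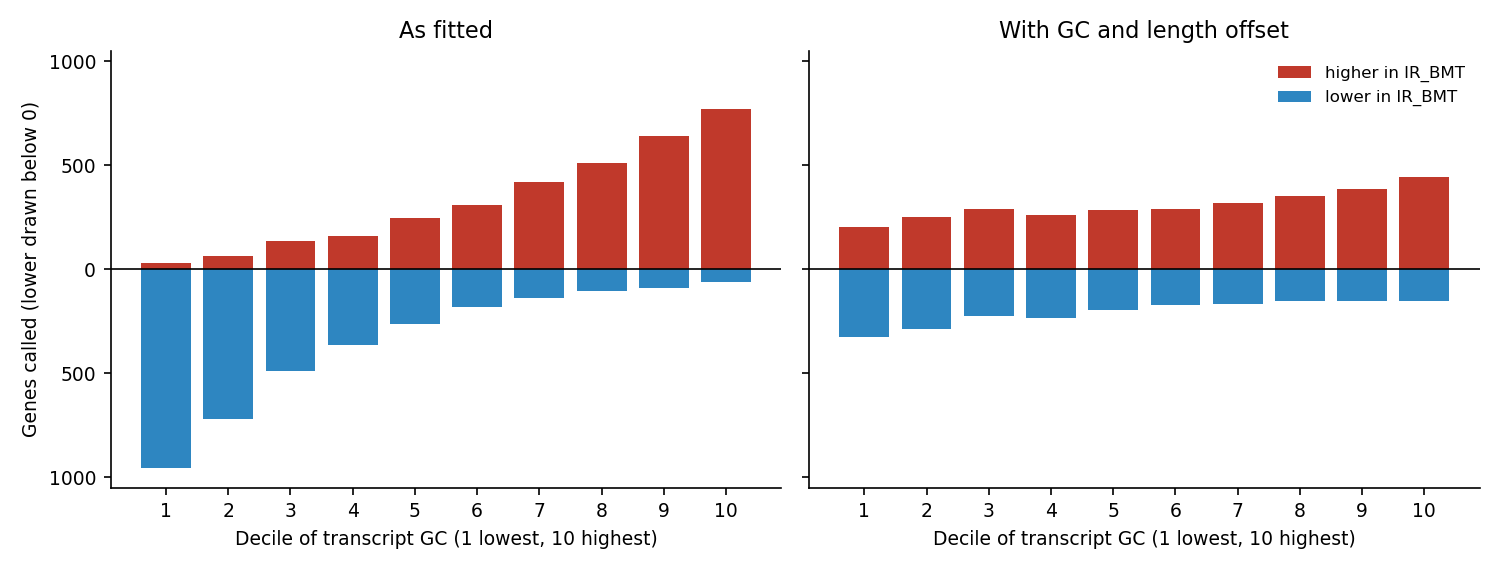
Number of genes called by edgeR in each decile of transcript GC content, from 1 (lowest) to 10 (highest), with genes higher in IR_BMT above 0 and genes lower in IR_BMT below 0. The left panel shows the counts as fitted, where the lowest decile holds 30 higher and 956 lower genes and the highest holds 772 and 62; the right panel shows the counts with the GC and length offset, where the same deciles hold 204 and 324, and 444 and 150.

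The genes with the smallest adjusted p in the outer deciles are shown with a stretch of their sequence. Clk1, a kinase that phosphorylates splicing factors (chr1:58410189-58424066, mm10, transcript GC 39.2%), and Rbm25, a splicing regulator (chr12:83631236-83683123, 37.5%), had the smallest in the lowest decile. Celsr2, a cadherin with a receptor domain that acts in planar cell polarity (chr3:108390851-108415552, 58.4%), and Ptprs, a receptor tyrosine phosphatase of axons and synapses (chr17:56412426-56476483, 60.3%), had the smallest in the highest. For each, 30 codons from the middle of the coding sequence are printed, from the longest transcript with an annotated coding sequence in GENCODE release 21 (mm10), which for Clk1 and Rbm25 is not the longest of all; they run 5′ to 3′ on the transcript's strand, with G and C in capitals. The stretch was chosen by position, and its own GC content is 37.8% in Clk1, 47.8% in Rbm25, 56.7% in Celsr2 and 78.9% in Ptprs. A stretch this short need not follow its transcript: in the other genes of the outer deciles described here it is 48.9% in Nktr, 47.8% in mt-Cytb, 52.2% in Doc2a and 57.8% in Ap2a1, beside a median transcript GC of 49.2% over all genes.
Clk1: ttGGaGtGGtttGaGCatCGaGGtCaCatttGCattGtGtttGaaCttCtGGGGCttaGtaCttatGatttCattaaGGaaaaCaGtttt
Rbm25: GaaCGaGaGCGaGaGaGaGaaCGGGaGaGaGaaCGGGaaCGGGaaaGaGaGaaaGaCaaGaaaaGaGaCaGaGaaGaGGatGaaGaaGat
Celsr2: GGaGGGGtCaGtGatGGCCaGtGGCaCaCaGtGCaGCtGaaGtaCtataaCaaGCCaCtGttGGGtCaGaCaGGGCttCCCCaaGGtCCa
Ptprs: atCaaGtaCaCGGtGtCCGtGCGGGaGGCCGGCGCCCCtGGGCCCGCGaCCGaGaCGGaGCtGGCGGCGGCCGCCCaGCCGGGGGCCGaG

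Clk1 stood at 49.3, 49.5 and 49.8 CPM in IR_BMT, against 98.0, 83.1 and 92.5 CPM in NT, a log2 fold change of -0.88 ± 0.07 (SE, edgeR adjusted p = 1.86e-07). Its 3 IR_BMT values differed by under 1 CPM and lay far below every NT value. Rbm25 stood at 53.5, 48.3 and 46.2 CPM in IR_BMT, against 90.6, 82.8 and 82.9 CPM in NT (-0.79 ± 0.06, edgeR adjusted p = 1.98e-07). mt-Cytb, the cytochrome b of respiratory complex III, stood at 1037, 884 and 904 CPM in IR_BMT, against 1531, 1576 and 1526 CPM in NT (-0.71 ± 0.06, edgeR adjusted p = 4.49e-07). Nktr, a cyclophilin-related protein of the same decile, had a log2 fold change of -0.72. Celsr2 stood at 279, 278 and 276 CPM in IR_BMT, against 144, 156 and 158 CPM in NT (0.86 ± 0.05, edgeR adjusted p = 4.83e-08). Ptprs stood at 1193, 1225 and 1154 CPM in IR_BMT, against 641, 705 and 719 CPM in NT (0.79 ± 0.05, edgeR adjusted p = 8.73e-08). The groups overlapped in none of these 4 printed genes. Ap2a1, a subunit of the clathrin adaptor, and Doc2a, a calcium sensor of synaptic vesicles, rose by 0.71 ± 0.05 and 1.22 ± 0.09 in the highest decile. Each of the 8 genes kept its direction and its call with the offset described next.

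The slope of level on GC content was higher in each IR_BMT library than in any of the other 12. For each library, the slope of log2 level, centred on each gene's mean over the 15 libraries, was taken on transcript GC content. It was 0.126, 0.207 and 0.218 log2 units per 10 percentage points of GC in IR_BMT, against -0.095, -0.081 and -0.018 in NT. The centring sets where 0 lies, so the slopes are read against each other and not by their sign, and the groups did not overlap. Their means were 0.184 ± 0.050 in IR_BMT and -0.065 ± 0.041 in NT (SD, n = 3 each), a difference of 0.249 with a two-sided exact permutation p of 0.10, the smallest that 3 against 3 libraries allow. The 9 PLX libraries, which are 3 groups, ran from -0.098 to 0.008, all under the lowest IR_BMT value. IR_BMT lay 0.223 above their mean of -0.040, with a two-sided exact permutation p of 0.00909, the smallest that 3 against 9 libraries allow, in a test added after seeing the data that treats the 3 PLX groups as one. Genes of the lowest decile took 5.33%, 4.85% and 4.81% of counts in IR_BMT, against 6.87%, 6.41% and 6.05% in NT. Genes of the highest decile took 15.1%, 15.7% and 15.7% of counts in IR_BMT, against 13.0%, 13.3% and 14.0% in NT. Whether the slope came from the tissue or from the making of the libraries was not tested, and with treatment and library making not separated by the labels the sources cannot be told apart.

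**Figure D2:**
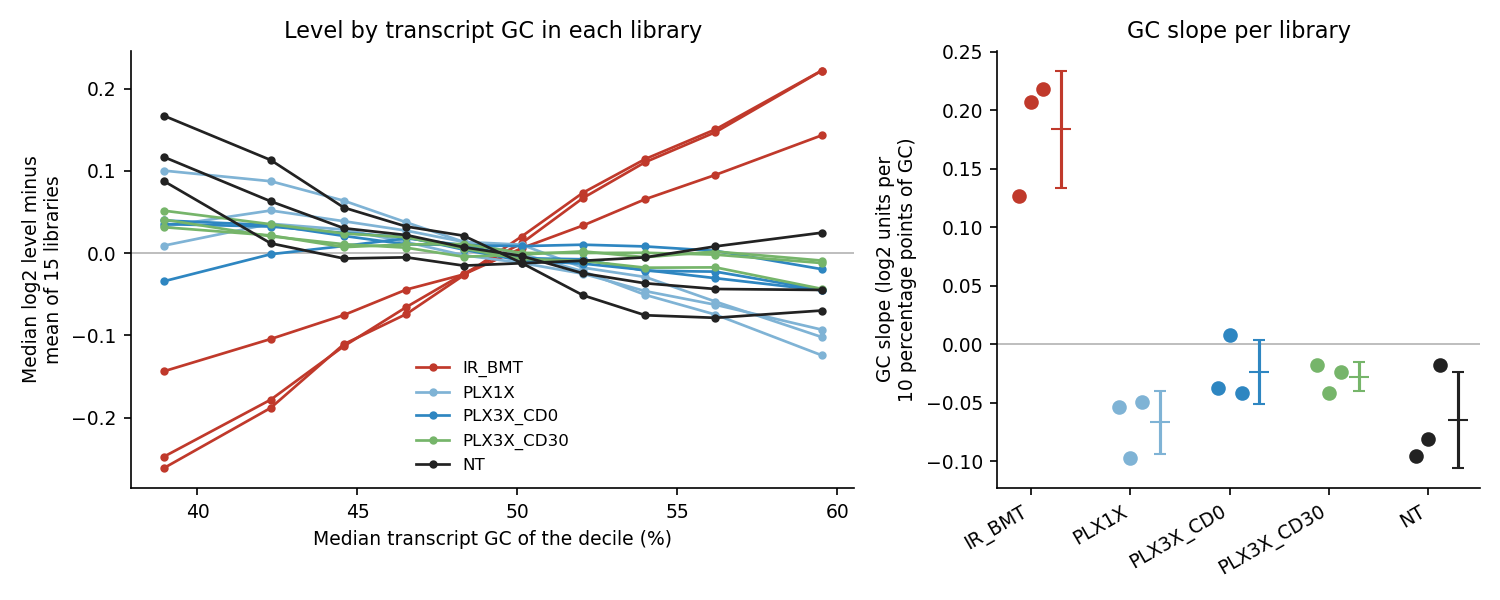
Left, median log2 level of the genes in each decile of transcript GC content, as the difference from each gene's mean over 15 libraries, with 1 line per library against the decile's median GC (%). Right, the GC slope of each library in log2 units per 10 percentage points (points), with mean ± SD of each group of 3 (bars); the 3 IR_BMT libraries sit between 0.126 and 0.218, above all 12 others.

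The slope was present in each class of genes examined. The median of the top 3 deciles minus that of the bottom 3 was 0.46 over all genes, 0.41 in protein-coding genes, 0.27 in processed pseudogenes, 0.44 in long intergenic RNAs and 0.51 in antisense RNAs. By tertiles of level, 3 groups of near-equal size, it was 0.60, 0.44 and 0.40 from low to high, and by tertiles of transcript length 0.49, 0.52 and 0.47. Level and GC content both went with the change. In the bottom 3 deciles, the median log2 fold change was -0.63, -0.32 and -0.14 from the low to the high tertile of level. In the top 3 deciles it was -0.02, 0.11 and 0.25. Of the 2468 genes at high level in the top 3 deciles, 1451 were called higher and 71 lower.

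**Figure D3:**
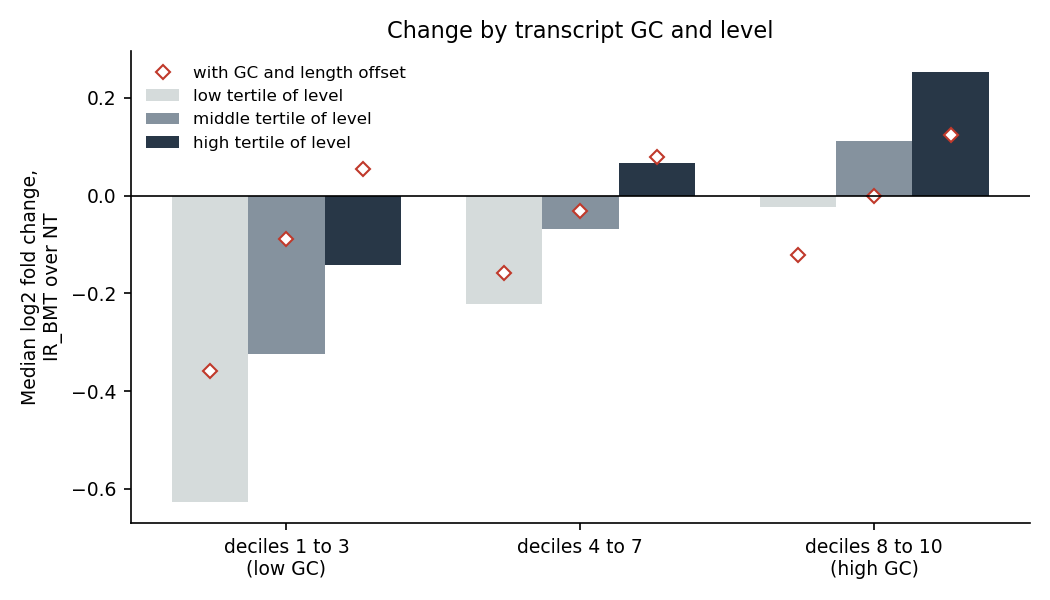
Median log2 fold change of IR_BMT over NT for genes grouped by deciles of transcript GC content and by tertile of level (bars), with the median under the GC and length offset as open diamonds. The bars run from -0.63 for low-level genes of low GC to 0.25 for high-level genes of high GC.

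To see which changes did not follow GC content, the counts were fitted again with a loess offset, which takes out of every library its own smooth trend of level on transcript GC and length, whatever the source of that trend. With the offset, edgeR called 5150 genes, 23.6% of those tested, with 3089 higher (14.2%) and 2061 lower (9.46%). Genes higher in IR_BMT thus made up 49.5% of the calls without the offset and 59.98% with it. Of the genes first called higher, 2397 kept the call in the same direction and 896 lost it. Of those first called lower, 1801 kept it, 1558 lost it and 6 turned to higher: Vdac3, Strn3, Myef2, Plaa, Brcc3 and Slitrk4, all of the lowest decile. These 6 are named because they turned, after their values were seen. The outer deciles were called less unevenly, with medians of -0.14 and 0.06. List counts against NT that follow are given from both fits where they differ, and single genes where the offset ended the call or moved the change by over 1.5 times.

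Among single genes past an average log2 CPM of 1, the largest rises were moderate and the largest falls were deeper. Map3k21, a kinase of the MAP kinase pathways (chromosome 8, 125910450 to 125947440, mm10), stood at 5.90, 5.99 and 5.90 CPM in IR_BMT, against 1.91, 2.92 and 1.62 CPM in NT. Its log2 fold change was 1.46 ± 0.25 (edgeR adjusted p = 0.000208) and 1.32 ± 0.25 with the offset. The other 9 largest rises were Usp43, Doc2a, Erdr1, Gm19410, Thbs1, Piezo1, Cadps2, Fbn1 and Gm14111, from 1.26 down to 1.11. They include Thbs1, a thrombospondin of the extracellular matrix, Piezo1, a channel opened by membrane stretch, and Fbn1, the fibrillin of microfibrils. Thbs1 stood at 6.78, 9.42 and 9.66 CPM in IR_BMT, against 3.15, 4.80 and 3.52 CPM in NT. Cadps2, which primes dense-core vesicles, stood at 231, 245 and 219 CPM in IR_BMT, against 148, 94.7 and 78.9 CPM in NT. All 10 rises kept their call with the offset.

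The 10 largest falls were of 3 kinds. Csf1r, Gpr34 and Hpgds are genes of microglia and other macrophages. mt-Nd3, a subunit of respiratory complex I encoded in mitochondria, stood at 1.61, 0.780 and 0.577 CPM in IR_BMT, against 6.15, 2.82 and 1.84 CPM in NT (-1.84, and -1.19 with the offset). Malat1, a nuclear long non-coding RNA, stood at 151, 132 and 135 CPM in IR_BMT, against 819, 305 and 192 CPM in NT, so that its spread lay in the NT libraries. Its log2 fold change of -1.65 ± 0.42 (edgeR adjusted p = 0.0124) was -0.84 without NT replicate 1, and it was not called from the 6 libraries alone. The remaining falls were C230071H17Rik, Gm42770, C130089K02Rik, Gm42616 and Gm42692. C230071H17Rik stood at 0.914, 1.03 and 0.735 CPM in IR_BMT, against 4.24, 5.32 and 4.61 CPM in NT (-2.41 ± 0.33, edgeR adjusted p = 3.13e-05).

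Those last 5 belong to a class that the annotation marks TEC, gene models that still await experimental evidence. Of 1058 TEC genes tested, 5 rose and 355 fell; the median log2 fold change was -0.95 against -0.05 over all genes tested. They made up 300 of the 765 falls of at least 2-fold. The count of falls was 236 without IR_BMT replicate 3. With the offset 6 rose and 207 fell, 123 without IR_BMT replicate 3, and the median was -0.69 against -0.01 over all genes tested. In 712 of the 1058 (67.3%), the TEC gene lies inside a protein-coding gene and clear of its exons, so its reads would come from an intron. There 0 rose and 297 fell, with a median of -1.14. In the other 346, 5 rose and 58 fell, with a median of -0.43. TEC genes took 0.0752% to 0.0865% of counts in IR_BMT, against 0.139% to 0.162% in NT. The 9 PLX libraries lay between 0.0755% and 0.120%, so that the NT libraries were the highest of the series. The part of intronic RNA, or of RNA not yet spliced, in the other falls was not tested.

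Genes of microglia and of macrophages in general were lower in IR_BMT, with and without the offset. Csf1r (chromosome 18, 61100598 to 61132149, mm10) stood at 48.8, 46.8 and 46.8 CPM in IR_BMT, against 146, 170 and 180 CPM in NT, and P2ry12, a purinergic receptor of resting microglia, at 14.6, 13.6 and 11.8 CPM against 40.9, 41.9 and 37.7 CPM in NT. P2ry12 lay far below NT in each IR_BMT library, at -1.59 ± 0.19 (edgeR adjusted p = 2.93e-05) and -1.22 ± 0.18 with the offset. Siglech, Tmem119 and Gpr34 fell as well, at -1.38, -0.92 and -1.70, and at -1.23, -1.06 and -1.28 with the offset. Of 14 genes on a list labelled microglia-restricted, 8 fell and none rose, with a median of -0.88 against -0.05 over all genes tested. With the offset the count was also 8, and the median was -0.94. The 14 genes summed to 424 to 518 CPM in PLX1X, against 813 to 907 CPM in NT. The 20 genes that microglia share with other macrophages summed to 30.3 to 80.5 CPM in PLX1X, against 609 to 748 CPM in NT. The summed level of the 14 genes thus did not closely follow that of macrophage genes, and the label may not hold for every member. Which members kept the sum up in PLX1X was not tested. In a bulk sample, fewer cells of a type and less RNA per cell cannot be told apart.

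Of 20 genes that microglia share with other macrophages, 13 fell, with a median of -0.99, and 12 fell with the offset, again with a median of -0.99. Cx3cr1, a chemokine receptor, stood at 37.3, 31.8 and 29.6 CPM in IR_BMT, against 62.5, 81.6 and 83.3 CPM in NT. The groups did not overlap, and its log2 fold change was -1.21 ± 0.30 (edgeR adjusted p = 0.0115). Irf8, a myeloid transcription factor, Fcgr3, a receptor for antibodies, and Trem2, a lipid receptor, fell as well, at -0.97, -1.04 and -0.83. Aif1, the calcium-binding protein Iba1, changed by -1.04 ± 0.31 (edgeR adjusted p = 0.0193), but was not called without IR_BMT replicate 2, IR_BMT replicate 3 or NT replicate 2, at adjusted p values of 0.0680, 0.0655 and 0.0573.

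No marker of macrophages that enter the brain from marrow was called higher in IR_BMT than in NT. Of 14 tested genes of such engrafted macrophages, 0 rose, and the summed level was 206 to 223 CPM in IR_BMT, against 205 to 241 CPM in NT. That sum was also 191 to 207 CPM in PLX1X and 191 to 207 CPM in PLX3X_CD0. In those groups the genes shared by macrophages summed to only 30.3 to 80.5 CPM and 24.6 to 56.8 CPM. The sum therefore says little on how many macrophages of any origin were present. Ms4a7, a membrane protein used to tell these cells from microglia, stood at 0.694, 0.306 and 0.472 CPM in IR_BMT, against 0.763, 0.495 and 0.461 CPM in NT, with the groups overlapping. The prostaglandin dehydrogenase gene Hpgd fell at -0.98 ± 0.24, and at -0.66 ± 0.24 with the offset. Clec12a, the other member called, stood at 1.23, 1.48 and 1.71 CPM in IR_BMT, against 2.38, 3.37 and 2.14 CPM in NT, and lost its call with the offset and without IR_BMT replicate 1 or NT replicate 2 (edgeR adjusted p = 0.0617 and 0.0972). Apoe, a lipid carrier of astrocytes and macrophages, stood at 2271, 2609 and 2690 CPM in IR_BMT, against 2205, 2161 and 2536 CPM in NT. None of the 7 MHC class II genes tested was called, and their median was 0.50; without NT replicate 2, 3 of them were called higher in both fits, and the median over the libraries left out ran from 0.12 to 1.08. None of the tested lymphocyte, neutrophil or erythrocyte genes was called.

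Some genes of dividing cells fell, and fewer rose. Mki67, the proliferation antigen Ki-67 (chromosome 7, 135689784 to 135716361), stood at 0.631, 0.446 and 0.262 CPM in IR_BMT, against 3.19, 1.59 and 1.58 CPM in NT. Its log2 fold change was -2.22 ± 0.37 (edgeR adjusted p = 0.000167) and -2.20 ± 0.37 with the offset. Top2a, the topoisomerase of dividing cells, stood at 0.757, 0.557 and 0.682 CPM in IR_BMT, against 1.57, 1.41 and 2.21 CPM in NT (-1.39 ± 0.28). Of 22 proliferation genes, 7 fell, the others being Pclaf, Aurkb, Nusap1, Cenpf and Rrm2, and 3 rose, with a median of -0.55, where 15.4% of all genes tested fell and 15.1% rose. The counts were the same with the offset, where 4 fell without IR_BMT replicate 2. The 3 that rose were Mcm2 and Mcm5, parts of the helicase that opens replication origins, and Pcna, the sliding clamp of replication and repair, at 0.24, or 0.40 with the offset. Rrm2, a subunit of the reductase that supplies DNA synthesis, and Pclaf, a partner of Pcna, were among those that fell. Mcm2 stood at 11.4, 8.64 and 9.47 CPM in IR_BMT, against 5.43, 6.41 and 7.54 CPM in NT.

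Among 17 genes of new neurons, 4 fell and 1 rose, and with the offset 2 fell and 1 rose. Over all genes tested 15.4% fell, and 9.46% with the offset; the count with the offset is near that share. Sox11, a transcription factor of immature neurons, stood at 8.29, 10.7 and 8.74 CPM in IR_BMT, against 16.1, 14.1 and 20.0 CPM in NT (-0.86 ± 0.13, edgeR adjusted p = 9.12e-05). Without NT replicate 3, 2 of the 17 fell; with the offset 4 fell without NT replicate 2 and 1 without IR_BMT replicate 3 or NT replicate 1. Tubb3, a neuronal tubulin that mature neurons also express, was the 1 that rose, at 390, 419 and 440 CPM in IR_BMT, against 224, 260 and 308 CPM in NT. Of 20 targets of p53, a transcription factor of the DNA damage response, 3 rose and 2 fell, and with the offset 2 rose and 1 fell. These counts are no higher than the shares over all genes tested, 15.1% and 15.4%, and 14.2% and 9.46% with the offset. Without NT replicate 3, 5 rose, and without IR_BMT replicate 3 none fell. Bbc3, the cell death gene Puma, stood at 15.0, 15.8 and 16.7 CPM in IR_BMT, against 8.63, 7.90 and 11.9 CPM in NT (0.73 ± 0.16), and Sesn2, a stress sestrin, rose by 0.44 ± 0.08, and by 0.28 ± 0.08 with the offset. The cell cycle inhibitor Cdkn1a changed by 0.27 and was not called.

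Myelin genes were lower. Of 16 tested, 11 fell and none rose, with a median of -0.55, and 14 fell with the offset, where the median was -0.34. Mbp, the myelin basic protein (chromosome 18, 82475146 to 82585637), stood at 2775, 2907 and 3068 CPM in IR_BMT, against 4952, 4008 and 4631 CPM in NT. Its log2 fold change was -0.64 ± 0.07 (edgeR adjusted p = 2.07e-06) and -0.70 ± 0.07 with the offset. Mal, a raft protein of myelin, stood at 79.0, 83.9 and 86.5 CPM in IR_BMT, against 146, 113 and 115 CPM in NT. The largest fall of the list was that of Ermn, an actin regulator of the sheath, at -0.97, or -0.62 with the offset. Among 8 genes of newly formed oligodendrocytes, 4 fell without the offset and 3 with it. Without the offset the GTPase gene Rras2 rose by 0.26, a call lost when any 1 of the 6 libraries was left out. With the offset 1 gene of the list rose, and that count stayed 1 without each of the 6 libraries. Bcas1, which marks newly formed oligodendrocytes, stood at 72.0, 65.9 and 69.6 CPM in IR_BMT, against 181, 135 and 136 CPM in NT. Its log2 fold change was -1.12, and -1.13 with the offset. Precursor genes moved apart: the proteoglycan Cspg4 (NG2) rose by 0.63 ± 0.09 and, with the offset, by 0.40 ± 0.08, the proteoglycan Vcan fell at -0.57 ± 0.11, and the receptor Pdgfra changed by 0.05 and was not called.

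**Figure D4:**
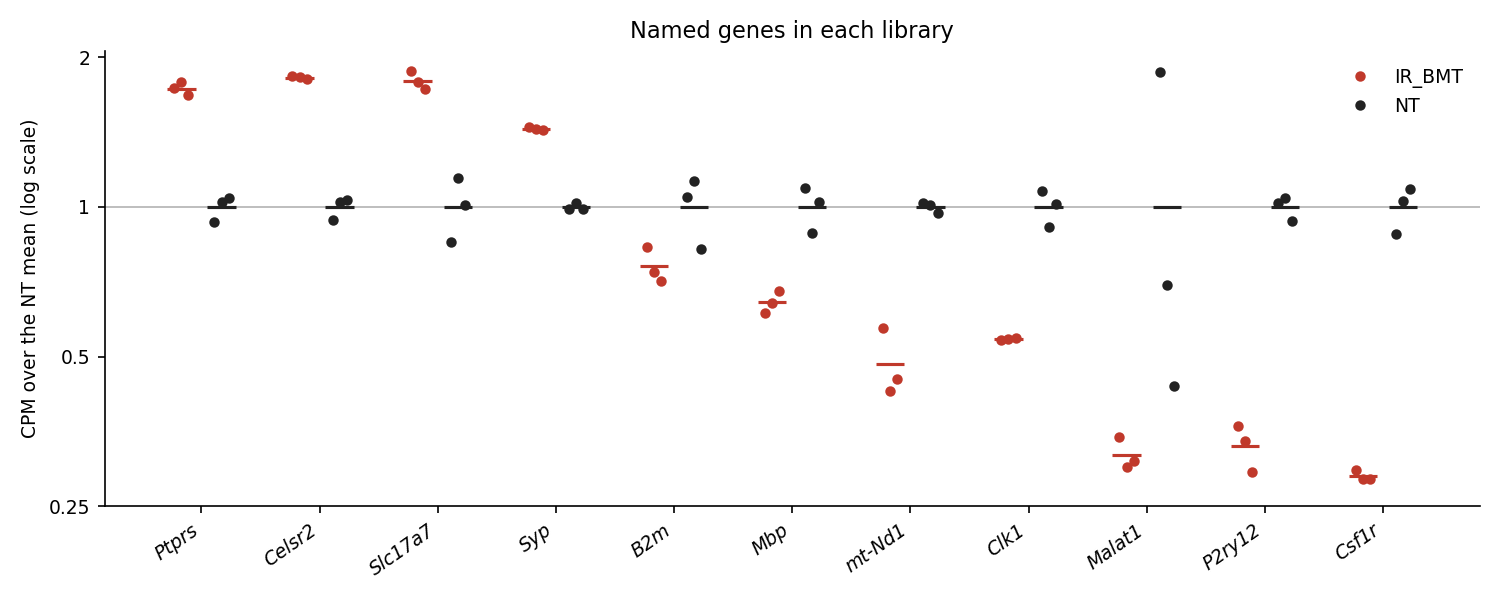
Level of 11 genes in each IR_BMT and NT library, as CPM over the NT mean on a log axis, with short lines at the group means. Ptprs, Celsr2, Slc17a7 and Syp lie above NT in all 3 IR_BMT libraries, and the remaining 7 lie below the NT mean; B2m, the light chain of MHC class I, overlaps NT, and the NT libraries of Malat1 spread the most.

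All 13 protein genes of the mitochondrial genome fell, with a median of -0.71, and these transcripts are poor in GC, with a median of 37.1%. With the offset 8 of 13 fell, 4 without IR_BMT replicate 2 or 3 and 5 without NT replicate 2, and the median was -0.34. mt-Nd1, a core subunit of complex I, stood at 461, 345 and 364 CPM in IR_BMT, against 822, 814 and 787 CPM in NT (-1.05 ± 0.09, edgeR adjusted p = 9.14e-07; -0.63 ± 0.08 with the offset). mt-Nd5, of the same complex, fell at -0.61 ± 0.07, and at -0.18 ± 0.06 with the offset. Summed over the 13 genes the level was 2942 to 3428 CPM in IR_BMT, against 4896 to 5124 CPM in NT. Of 79 nuclear genes of the respiratory chain, 27 rose and 14 fell, with a median of 0.08, and 25 rose and 9 fell with the offset. The falls were near the share over all genes tested, 15.4%, or 9.46% with the offset. Subunits of complex I moved in both directions. Ndufs7 (59.6% GC) stood at 211, 252 and 246 CPM in IR_BMT, against 143, 158 and 174 CPM in NT. Ndufb5 (48.1% GC) stood at 45.9, 41.0 and 42.1 CPM in IR_BMT, against 63.1, 63.5 and 57.4 CPM in NT. Both kept their call with the offset. Of 81 cytosolic ribosomal protein genes, which have near-identical pseudogenes that can take their reads, 18 rose and 16 fell, and 16 rose and 8 fell with the offset, where over all genes tested 15.1% rose and 15.4% fell, and 14.2% and 9.46% with the offset; the falls are near those shares. The first counts were 10 and 8 without IR_BMT replicate 2, 11 and 10 without IR_BMT replicate 3, and 10 fell without NT replicate 2. With the offset 9 rose without IR_BMT replicate 2, 10 without IR_BMT replicate 3 or NT replicate 1, and 25 without NT replicate 3.

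The zinc finger genes named Zfp, a large family of transcription factors with GC-poor transcripts (median 44.5%), were called in near balance once the offset was used. Of 361 tested, 41 rose and 107 fell, 70 without IR_BMT replicate 2, with a median of -0.16. With the offset 39 rose and 38 fell, with a median of -0.01, the same as over all genes tested, where 14.2% rose and 9.46% fell. Those offset counts were 24 and 20 without IR_BMT replicate 2, 25 fell without IR_BMT replicate 3, and 25 rose without NT replicate 1. Zfp322a (38.5% GC) stood at 19.3, 16.0 and 15.4 CPM in IR_BMT, against 26.5, 27.9 and 28.1 CPM in NT (-0.70, and -0.40 with the offset). Zfp771 (68.7% GC) stood at 80.3, 89.8 and 76.6 CPM in IR_BMT, against 51.7, 40.1 and 49.7 CPM in NT. Clustered protocadherins, which give neurons their surface identity, were little touched by the offset. Of 55 tested, 24 rose and 1 fell, with a median of 0.32, and 22 rose and 1 fell with the offset, 14 rising without IR_BMT replicate 2. Some of these genes share constant exons, so counts among those are uncertain. Pcdhac2 stood at 97.2, 93.2 and 93.0 CPM in IR_BMT, against 55.95, 70.1 and 60.8 CPM in NT. Of 72 potassium channel genes, 28 rose and 5 fell, with a median of 0.24, and 24 rose and 7 fell with the offset. Kcnc4, a fast voltage-gated channel, stood at 125, 118 and 118 CPM in IR_BMT, against 58.0, 74.0 and 66.7 CPM in NT.

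Several genes of cortical neurons were higher, and several of striatal neurons were lower. Slc17a7, the glutamate transporter of cortical synaptic vesicles (chromosome 7, 45163949 to 45176142), stood at 2406, 2289 and 2213 CPM in IR_BMT, against 1089, 1467 and 1291 CPM in NT (0.84 ± 0.09, edgeR adjusted p = 4.18e-06; 0.72 ± 0.09 with the offset). Syp, the vesicle protein synaptophysin, stood at 1005, 998 and 992 CPM in IR_BMT, against 689, 707 and 688 CPM in NT. Its longest transcript, which the offset uses, has 45.4% GC, but its coding part has 58.6% and the mean over its transcripts is 54.2%. Syp rose by 0.52 ± 0.05 and, with the offset, by 0.67 ± 0.05, so the size of the second value depends on the transcript chosen. Of 16 neuron genes 7 rose, also with the offset, with a median of 0.07. Gad2, which makes GABA, fell at -0.50, a call lost with the offset and without IR_BMT replicate 1 or 2 or NT replicate 1. Of 10 genes of cortical neurons, 6 rose, 4 with the offset, with a median of 0.47; Rorb, of layer IV, fell at -0.38, a call lost with the offset and without NT replicate 1 or 2. Tbr1, a transcription factor of deep cortical layers, stood at 152, 133 and 123 CPM in IR_BMT, against 89.1, 89.6 and 67.1 CPM in NT.

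Of 10 genes of striatal neurons, 6 fell and none rose, with a median of -0.71 in both fits. Ppp1r1b, the dopamine-regulated phosphatase inhibitor DARPP-32, stood at 324, 329 and 460 CPM in IR_BMT, against 645, 647 and 656 CPM in NT (-0.81 ± 0.18, edgeR adjusted p = 0.00447). Tac1, a tachykinin precursor, stood at 46.9, 44.5 and 77.5 CPM in IR_BMT, against 120, 127 and 127 CPM in NT. IR_BMT replicate 3 was the highest of its group in both, still under every NT value. The striatal count was 2 without IR_BMT replicate 1 or 2 and 3 without NT replicate 2, and with the offset it was 6, or 1 to 2 without each of IR_BMT replicates 1 and 2 and NT replicates 1, 2 and 3. The 10 striatal genes summed to 1603, 1610 and 2447 CPM in IR_BMT, against 2901, 3173 and 3123 CPM in NT, while the 10 cortical genes summed to 1821, 1729 and 1576 CPM in IR_BMT, against 1312, 1485 and 1288 CPM in NT. The share of each region in the dissected tissue is not given in the labels, and its part in the result was not tested.

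Cholesterol synthesis genes, which oligodendrocytes and astrocytes use heavily, rose in part. Of 19 tested, 9 rose and 1 fell, with a median of 0.19, and 10 rose and 1 fell with the offset, where the median was 0.26. Fdft1, which makes squalene (chromosome 14, 63145150 to 63179578), stood at 139, 132 and 129 CPM in IR_BMT, against 95.0, 99.1 and 99.5 CPM in NT (0.45 ± 0.06, edgeR adjusted p = 9.47e-06). The groups did not overlap. Lss, which makes lanosterol, rose by 0.45 ± 0.06. Idi1, an isomerase early in the pathway, was the 1 that fell, at -0.68, or -0.44 with the offset. Of 15 clock genes 4 rose and 2 fell, with a median of 0.02, and with the offset 4 rose and 3 fell. Over all genes tested 15.1% rose and 15.4% fell, and 14.2% and 9.46% with the offset. In both fits 1 fell without IR_BMT replicate 1, and 2 rose and 1 fell without NT replicate 1. The repressor Bhlhe41 stood at 11.7, 10.9 and 9.39 CPM in IR_BMT, against 27.6, 23.9 and 22.7 CPM in NT (-1.21 ± 0.11, edgeR adjusted p = 8.52e-07). The nuclear receptor Nr1d1 rose by 0.49 ± 0.07. The hours of dissection are not given in the labels.

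Some astrocyte and vessel genes were lower. Over all genes tested 15.4% fell, and 9.46% with the offset. Of 14 astrocyte genes 4 fell and none rose, with a median of -0.12, and 1 fell with the offset, no more than that share. The first count was 1 without IR_BMT replicate 1 or 2 and 2 without IR_BMT replicate 3 or NT replicate 3, and 3 rose without NT replicate 3; with the offset 3 fell without NT replicate 1. Of 13 genes of reactive astrocytes 2 rose in both fits, near the share over all genes tested, 15.1%, or 14.2% with the offset. Without the offset, 4 rose without IR_BMT replicate 1, and 1 without IR_BMT replicate 2, NT replicate 1 or NT replicate 2. Gfap, the filament of reactive astrocytes, stood at 276, 365 and 377 CPM in IR_BMT, against 166, 211 and 284 CPM in NT, with 1 NT library inside the IR_BMT range (edgeR adjusted p = 0.0554). It was called without IR_BMT replicate 1 or NT replicate 3, at adjusted p values of 0.0386 and 0.0158. Serpina3n, a protease inhibitor induced in astrocytes, stood at 13.6, 14.6 and 13.7 CPM in IR_BMT, against 9.82, 8.52 and 10.2 CPM in NT (0.56 ± 0.10, edgeR adjusted p = 0.000239). Gja1, the gap junction protein connexin 43, with 42.2% GC, stood at 328, 316 and 340 CPM in IR_BMT, against 372, 396 and 390 CPM in NT, and changed by -0.24 ± 0.05 without the offset and by -0.02 ± 0.06 with it, where it was not called. Itm2a and Slco1a4, a membrane protein and an organic anion transporter of brain endothelium, fell, at -0.50 and -0.48, and at -0.22 and -0.20 with the offset. Of 14 endothelial genes 5 fell, against 3 without IR_BMT replicate 1 and 2 without IR_BMT replicate 3 or NT replicate 2; with the offset 3 fell, or 1 without IR_BMT replicate 3 or NT replicate 2.

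Counts were small in the remaining lists. Over all genes tested 15.1% rose and 15.4% fell, and with the offset 14.2% rose and 9.46% fell. Of 12 immediate early genes, which neurons induce within minutes of activity, 3 rose: Ier2, Dusp1 and Fosb, at 0.77, 0.76 and 0.67. Without NT replicate 3 the count was 9, and Fosb was not called without IR_BMT replicate 3, NT replicate 1 or NT replicate 2. With the offset 3 rose as well, or 6 without NT replicate 3 and 2 without IR_BMT replicate 3. That offset count was 1 without IR_BMT replicate 1, IR_BMT replicate 2 or NT replicate 2, and 0 without NT replicate 1. Of 24 interferon response genes 2 fell, with a median of -0.47, and with the offset none was called. Without the offset, 6 fell without NT replicate 1 and 5 without NT replicate 3. Without NT replicate 2, 1 fell and 2 rose, and the median over the libraries left out ran from -0.63 to 0.05. The list summed to 274 CPM in NT replicate 2, against 147 and 160 CPM in NT replicates 1 and 3 and 154 to 174 CPM in IR_BMT. Of 16 genes of disease-associated microglia 2 rose and 2 fell in both fits, near the shares over all genes tested. Among them were the fatty acid carrier Fabp5 at 0.32 ± 0.07 and the tetraspanin Cd9 at -0.44 ± 0.08, or -0.29 ± 0.07 with the offset. Of 9 MHC class I genes, H2-D1 rose by 0.38 ± 0.09. B2m stood at 51.6, 45.9 and 43.9 CPM in IR_BMT, against 65.0, 69.9 and 51.1 CPM in NT; its log2 fold change of -0.39 ± 0.10 was -0.08 with the offset and no longer called. Of 8 thalamic genes 4 fell, 2 with the offset. The border macrophage list had 1 call, the pericyte list 3, or 2 with the offset, and the meningeal fibroblast, hypothalamic and ependymal lists none. Each of the 6 libraries, when left out, moved at least 1 of these small counts by over 1.5 times.

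**Figure D5:**
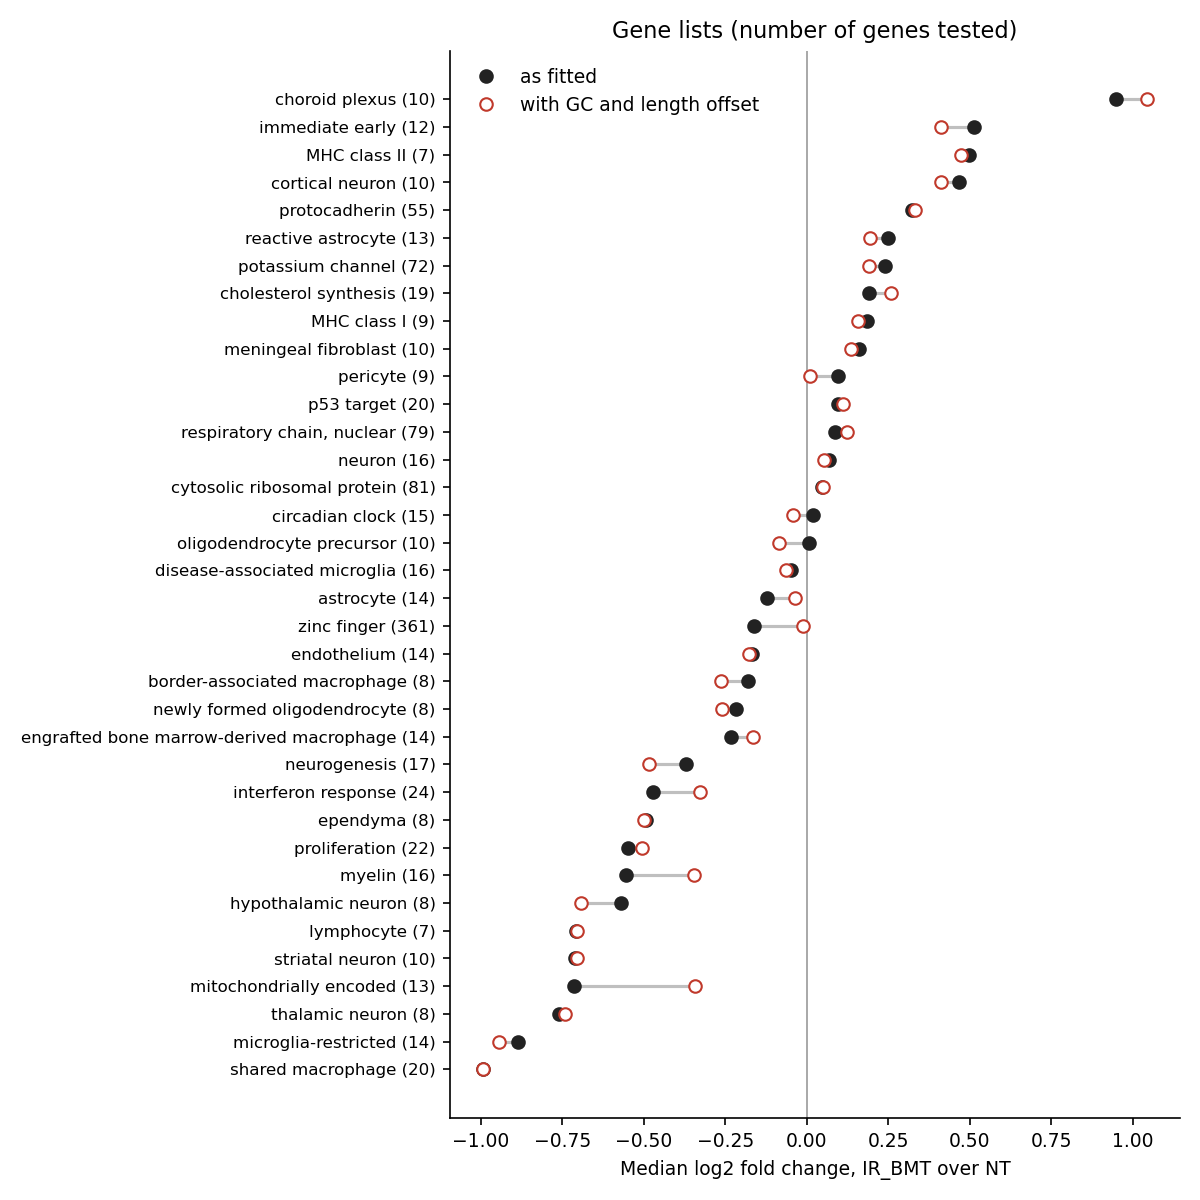
Median log2 fold change of IR_BMT over NT for 36 gene lists, with the number of genes tested in brackets; filled points are as fitted and open points are with the GC and length offset. The lists run from -0.99 for genes shared by macrophages to 0.95 for the choroid plexus list, in which no gene was called and whose median was -0.52 without IR_BMT replicate 1, and the mitochondrially encoded list moves the most, from -0.71 as fitted to -0.34 with the offset.

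Against the 9 PLX libraries, a comparison that does not use NT, edgeR called 6359 genes, 29.2% of those tested, with 3121 higher (14.3%) and 3238 lower (14.9%) in IR_BMT. Without IR_BMT replicate 2 it called 4236. The GC deciles were ordered as before: in the lowest 22 genes were higher and 847 lower, in the highest 1024 were higher and 10 lower, and the medians lay 0.61 apart. With the offset 3309 genes were called (15.2%), 1587 higher (7.29%) and 1722 lower (7.91%). That comparison averages 3 groups that differ widely in macrophage genes, so it does not stand for each of them. All 20 genes shared by macrophages were called higher in IR_BMT than in that average, with a median of 2.01. Of the 14 genes on the microglia-restricted list, 11 were called higher, 10 with the offset, with a median of 1.66. The 20 genes summed to 307 to 353 CPM in IR_BMT, against 30.3 to 80.5 CPM in PLX1X, 24.6 to 56.8 CPM in PLX3X_CD0 and 304 to 319 CPM in PLX3X_CD30. The ranges of IR_BMT and PLX3X_CD30 overlapped. Csf1r differed from the average by 1.68 log2 units (edgeR adjusted p = 0.00101), but its 48.8, 46.8 and 46.8 CPM in IR_BMT lay above PLX1X, at 4.53 to 13.6 CPM, and PLX3X_CD0, at 3.58 to 10.6 CPM, and below PLX3X_CD30, at 53.8 to 55.7 CPM. Of 14 genes of engrafted macrophages, 7 were called higher and 1 lower, 5 and 1 with the offset. Ms4a7 was among those called higher (edgeR adjusted p = 0.000481), at 0.306 to 0.694 CPM in IR_BMT, against 0 in every PLX1X library, 0 to 0.0608 CPM in PLX3X_CD0 and 0.209 to 1.08 CPM in PLX3X_CD30, the last overlapping IR_BMT. Of 22 proliferation genes, 6 were called lower in IR_BMT and 1 higher, where 14.9% of all genes tested were lower and 14.3% higher. With the offset 2 were lower and none higher, and the count of lower genes was near the 7.91% over all genes tested. Mki67 differed by -1.51 (edgeR adjusted p = 0.00167). Myelin genes were called lower in 7 of 16, 10 with the offset, and striatal genes in 5 of 10, 3 with the offset. Mitochondrially encoded genes were lower in 6 of 13, against 3 lower and 1 higher with the offset. TEC genes had a median of -0.25, with 9 higher and 81 lower. Of 19 cholesterol synthesis genes, 2 were higher and 5 lower, with a median of 0.04, and 0 and 2 with the offset. Of 55 protocadherins, 2 were higher and 2 lower, with a median of 0.05, and 3 and 2 with the offset. The rises of both lists against NT were thus not seen against the PLX average.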

How the data were processed

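Bulk RNA of frozen forebrain was sequenced in 15 libraries. Per the labels' protocols, cDNA came from a SMARTer Ultra Low kit, which does not mark strand, and paired reads had 150 bases. The deposited table holds raw counts per gene; the authors used DRAGEN, DESeq2 and mm10, per the submitters' processing notes. What each tool did, which annotation was counted and how strand was set is not given in the sources used here. Of 55774 rows, 287 repeats of an identifier were dropped. Even numbers made up 70.6% to 74.7% of the counts from 1 to 4, so that a count may stand for less than 1 fragment, and tests rest on the spread between libraries.

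The test was edgeR 4.0.16 (R 4.3.3), with TMM factors, the filterByExpr filter, 1 mean per group fitted over all 15 libraries, and robust quasi-likelihood F-tests, two-sided, with Benjamini-Hochberg adjustment over 21780 genes and a threshold of 0.05 (biological coefficient of variation 12.1%). Standard errors are the log2 fold change divided by the square root of F. GC content and length are those of the longest transcript in GENCODE mouse release 21 (mm10), found for 99.9% of the genes tested. The GC slope used log2(CPM + 0.5), and the offset a loess fit per library (span 0.3). No 2 libraries of a group agreed within sampling noise. The procedure was tested on simulated counts. Genes named are the 10 largest rises and 10 largest falls past the threshold, at an average log2 CPM of at least 1 and without overlap of the groups, 4 per outer GC decile, up to 3 per list by adjusted p, and 9 set genes; others were named after their values were seen, and some genes that the rule names are not reported here. The comparison, the 39 gene lists and the tests were chosen with earlier results of these data known. Alternatives were DESeq2 1.42.0, other size factors, filters, offsets, GC measures and pseudocounts, the replicate number as a block, and leaving out each library. Reads of overlapping or antisense genes cannot be separated, and near-identical copies make a gene uncertain.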

Additional observations from a re-analysis of the deposited data

How the results depend on the processing

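The count of 6658 genes called between IR_BMT and NT kept within 1.5 times under DESeq2 (6751), other size factors, other filters, the 6 libraries alone (4721) and each library left out (5097 to 6827). The count of genes lower in IR_BMT, 3365, was 1892 with a GC offset, 2061 with the GC and length offset and 1978 with that offset and the replicate block; the length offset alone gave 4000 higher and 2870 lower. With the GC and length offset, 3391 genes were called and 1292 were lower from the 6 libraries alone, against 5150 and 2061 from all 15. Leaving out each library, that fit called 3807 to 4946 genes, 2453 to 3038 higher and 1354 to 1908 lower, with 1354 lower without IR_BMT replicate 2. Against the PLX groups, 6359 genes were called, 3309 with the GC and length offset, and 4236 to 5666 without each IR_BMT library, the lowest without IR_BMT replicate 2. The difference in GC slope, 0.249, was 0.313 with a pseudocount of 0.1 CPM and 0.188 with 2 CPM. The gap between the outer GC deciles, 0.70, was 0.53 by the GC of the coding part and 0.59 in protein-coding genes. Of 115 named genes, 13 lost their call with the GC and length offset. Ms4a7, at -0.19 and not called, was 0.0336 with the GC offset, 0.0178 with the GC and length offset, and ranged over -0.507 to 0.0570 with each library left out, the lowest without IR_BMT replicate 1 and the highest without IR_BMT replicate 2; it was 0.0239 without NT replicate 1. Apoe, at 0.13 and not called, was -0.0379 with the GC offset, -0.00538 with the GC and length offset and -0.0048 with the replicate block added. The causes of these shifts were not tested. The titles number the replicates, but the numbers did not pair the libraries: same-numbered IR_BMT and NT libraries correlated at 0.14, -0.11 and 0.25 in their deviations from the group means, and IR_BMT replicate 2 correlated best with NT replicate 3. With the replicate block 6517 genes were called, 3257 higher and 3260 lower. Genes of low level limit what could be seen: in the low tertile of level 94 genes were called higher and 681 lower.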

Other observations

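Chromosomes differed in their median log2 fold change of IR_BMT over NT along with the GC content of their genes. Chromosome 3, with a median transcript GC of 46.4%, stood at -0.17 and chromosome X, with 46.3%, at -0.15. Chromosome 15, with 51.4%, stood at 0.08 and chromosome 11, with 52.4%, at 0.02. With the GC and length offset, chromosomes 3 and X stood at -0.08 and -0.02, and chromosome 15 at 0.05. Of 24 mitochondrial genes tested, transfer and ribosomal RNA included, 15 were lower and none higher. Processed pseudogenes, of which 2424 were tested, had 83 higher (3.42%) and 78 lower (3.22%) against NT, where 15.1% and 15.4% of all genes tested were called. Against the PLX groups 249 were higher and 23 lower, where 14.3% and 14.9% of all genes tested were called. Their median level was low, at a log2 CPM of -0.31 against 4.43 in protein-coding genes, which limits the calls.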
